A study of Homo sapiens with 3 samples.

Results

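The transcripts of the small-subunit ribosomal proteins were examined for A-to-G editing in 3 HyperTRIBE libraries of THP-1, a monocytic cell line from a human leukemia. Members were taken by gene name: RPS followed by a number, with or without a letter or paralogue number, and also RPSA and FAU, while the RPS6K kinases do not match. They comprised 536 distinct edited positions in 33 genes, of 16820 positions in 4245 genes in all. The annotation holds 35 genes whose names match, and RPS27L and RPS4Y2 had no listed position.

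In HyperTRIBE an RNA-binding protein is fused to a hyperactive form of the catalytic domain of ADAR, the enzyme that deaminates adenosine in RNA to inosine, which is read as G. The DDX41-ADARcd library came from cells carrying DDX41, a DEAD-box helicase mutated in myeloid neoplasms, joined to that domain. The ADARcd library came from cells carrying the hyperactive domain alone, and the Empty library from cells carrying the pGK-GFP retrovirus without either. All cells received retroviral supernatants from 293T producer cells, and total RNA was taken at day 7. Whether the endogenous DDX41 and ADAR genes were altered is not stated.

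Each group had 1 library, so every test here compares the reads of libraries, not the conditions, and has no replicate check. Each of the 3 deposited lists gives the positions edited in a first library and not in its control. Depth is the number of reads at a position, as totals per library are not given. Listed positions covered 14 of 20 markers of monocytic leukemia cells, LYZ, ELANE and SPI1 among them, but not CD14, CD33, ITGAM, MPO, S100A8 or S100A9. None of the 5 markers of each of T cells, B cells, erythroid and epithelial cells was listed, which the lists can show only as a lack of listed edits, not of expression. DDX41 had 6.93 times as many reads in DDX41-ADARcd as in ADARcd (median of 23 positions).

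The small ribosomal subunit binds messenger RNA and reads its codons, and its proteins are made from short, very abundant messenger RNAs. RPS2, RPS3 and the RPS30 protein encoded by FAU lie where messenger RNA enters the subunit, while RPSA and RPS3A lie on the side where it leaves. Many ribosomal protein genes also carry small nucleolar RNAs in their introns, and mutation or loss of several of them, such as RPS19 and RPS14, impairs red cell production.

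ADARcd alone left strong edits in a small number of these transcripts, and 10 positions in 7 genes were edited less in DDX41-ADARcd by the test described below: 9 in coding sequence and 1 in the stop codon of RPS3. Of the coding positions, 7 would change the amino acid and 2 were synonymous. Their surroundings are shown because they are the positions at which the fusion and the domain alone differed. Each line gives 10 bases on either side of the edited adenosine, which is in capitals, from GENCODE 29 transcripts, 5′ to 3′, with the position of that adenosine on GRCh38 and the strand. Codons are counted from 1 at the start methionine. The region labels count stop codons with the 3′ UTR, and the RPS3 position labelled 3′ UTR is the last base of its stop codon (TAA to TAG).
RPS3A codon 234, chr4:151104500, plus strand: ttcatggtgaAggcagtagtt
RPS2 codon 235, chr16:1962502, minus strand: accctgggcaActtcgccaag
RPS2 codon 238, chr16:1962267, minus strand: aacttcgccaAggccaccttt
RPS2 codon 103, chr16:1963216, minus strand: gcctctctcaAggatgaggtt
RPS3 codon 107, chr11:75402416, plus strand: tctctgcgttAcaaactccta
RPS3 3′ UTR, chr11:75404865, plus strand: ccacagcataAcagggtctcc
RPS27 codon 80, chr1:153992076, plus strand: atgttccttcAggaggaagca
RPSA codon 288, chr3:39412344, plus strand: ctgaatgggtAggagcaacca
RPS29 codon 54, chr14:49585952, minus strand: cggtttcattAagttggacta
RPS27A codon 148, chr2:55235549, plus strand: tgtctgacttActgtttcaac

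The base before the edited A was A at 5 of these positions, T at 4, C at 1 and G at none. Of the 536 member positions, 63 overlap a gene annotated on the other strand, and RPS3A codon 234 overlaps SH3D19 in this way. Ribosomal protein genes also have many processed pseudogenes, and how reads that fit several places were counted is not given. The RPS2 windows for codons 235 and 238 overlap, because the 2 edited bases are 9 bases apart on the spliced messenger RNA although an intron separates them in the gene.

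The first comparison asks where the catalytic domain edits by itself. The list of ADARcd against Empty held 363 positions in all 33 genes, of 6413 positions in 1258 genes. Of these, 4 passed a two-sided Fisher's exact test with Benjamini-Hochberg adjustment over all tested positions, and those of RPS3A, RPS2 and RPS27 are described here. That is 1.1% of 363 member positions, beside 0.203% of all 6412 tested. Empty had a median of 131 reads at the member positions and 27 over all positions of the list. With fewer reads a difference is harder to detect, so the 2 shares are not like for like. Every listed position had 0 edited reads in Empty, so none could be lower in ADARcd, and the p-values are not corrected for that choice of positions. An unadjusted p under 0.05 was reached by 11 member positions in 8 genes, and by 35 positions over all genes.

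RPS3A, a protein at the subunit's platform, had the highest level: 414 of 1104 reads in ADARcd (37.5%, 95% interval 34.6 to 40.4) against 0 of 211 in Empty, where 0 allows up to 1.42% (Fisher's exact test, adjusted p = 1.37e-35). The change (E234E) is synonymous. RPS2 was edited at codon 235 in 285 of 2270 reads in ADARcd (12.6%, 11.2 to 14) against 0 of 423 in Empty (up to 0.709%; Fisher's exact test, adjusted p = 1.13e-19), giving N235S. These 2 positions carried most edited reads of ADARcd in their genes, 414 of 438 in RPS3A and 285 of 418 in RPS2.

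RPS27, a zinc-binding protein, had 100 of 1354 reads edited at codon 80 in ADARcd (7.39%, 6.05 to 8.91) and 0 of 194 in Empty (up to 1.55%; Fisher's exact test, adjusted p = 0.00139), giving R80G. With edited and other reads halved in both libraries, the adjusted p of RPS27 was 0.156.

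Other positions reached similar levels without passing the adjusted test, where Empty had few reads. FAU, which encodes a ubiquitin-like protein joined to RPS30, had 38 of 361 reads edited at L10L in ADARcd (10.5%, 7.56 to 14.2) but 0 of 27 in Empty, which allows up to 11.1%. The SYVN1 gene, annotated on the same strand, overlaps that FAU position. At RPSA codon 288 the level was 10.1% in ADARcd (57 of 563 reads), and the 34 reads of Empty allow up to 8.82%. RPS29, a zinc-binding protein, had 46 of 457 reads edited at codon 54 in ADARcd (10.1%) and none of 38 in Empty, which allows up to 7.89%. The adjusted p was 1 for all 3, and at these depths of Empty a difference was not detectable after adjustment.

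**Figure D1:**
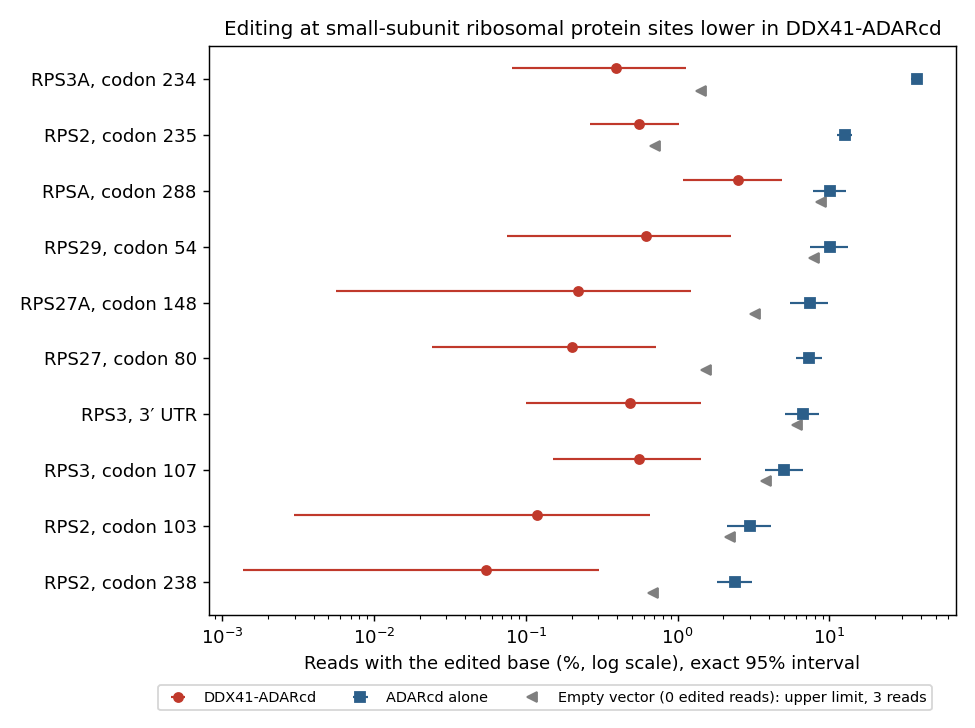
Editing level in percent of reads (log axis) at the 10 positions lower in DDX41-ADARcd, with 1 row per position, circles for DDX41-ADARcd, squares for ADARcd and triangles for the upper limit of Empty, which had 0 edited reads. Lines are exact 95% intervals. The row labelled 3′ UTR is the stop codon position of RPS3. Every ADARcd value lies above the DDX41-ADARcd value of its row.

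The strong positions carried most of the edited reads. Positions with 5 or more edited reads in ADARcd numbered 32 in 17 genes, and they held 1468 of the 1919 edited reads counted over the 363 positions (76.5%). The 10 positions shown above held 1145 (59.7%). The 247 positions with a single edited read, 68.0% of the list, held 12.9%. Over all genes 74.8% of positions had a single edited read.

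The median level of the 363 member positions in ADARcd was 0.138% (0.123 to 0.149) at a median depth of 958 reads, with 131 reads in Empty. Over all positions of that list the median level was 0.434% at a median of 286 reads. A position enters the list with 1 edited read, so a deeper transcript can enter at a lower level, and the 2 medians are not like for like. At the median Empty depth of the member positions, 0 edited reads allow up to 2.29%.

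**Figure D2:**
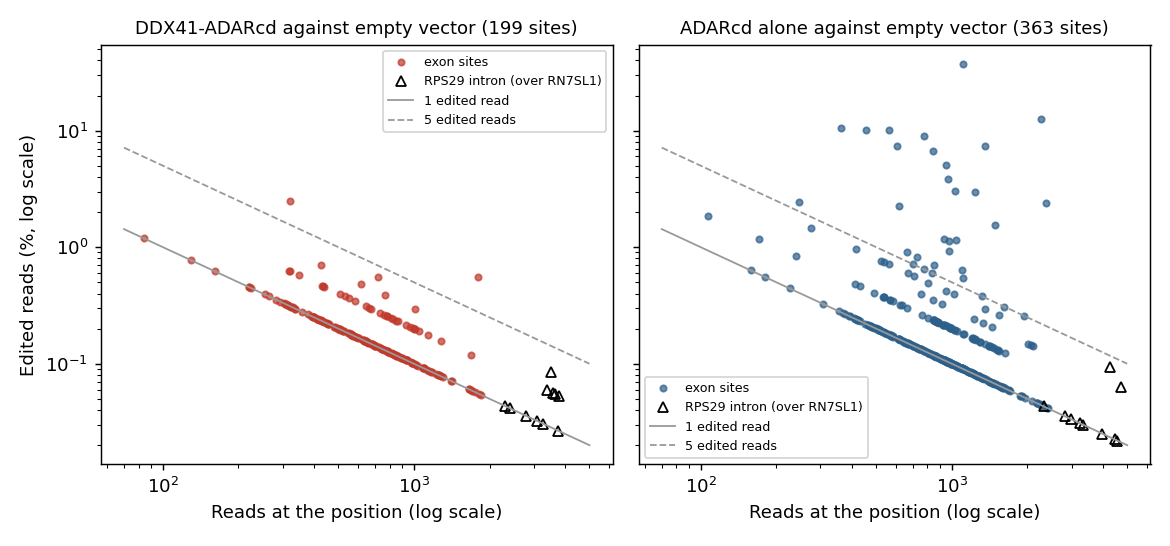
Editing level in percent (log axis) against reads at the position (log axis) for the 199 member positions listed for DDX41-ADARcd against Empty and the 363 listed for ADARcd against Empty, with lines for 1 and 5 edited reads. Most points lie on the line of 1 edited read, and DDX41-ADARcd has 2 positions at or above 5 edited reads where ADARcd has 32.

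Strong and weak positions differed in the base before the adenosine. An A or T came before it at 27 of the 32 positions with 5 or more edited reads in ADARcd (84.4%, 67.2 to 94.7). The same held for 37.7% (31.5 to 44.1) of the 239 exon positions with a single edited read, and for 41.8% of the 4423 adenosines in the members' coding sequences. No position of the 32 had G before it. Over all genes, an A or T preceded 79.7% of the positions with 5 or more edited reads. The base after the adenosine was G at 37.5% (21.1 to 56.3) of the 32 positions and at 30.3% of the members' coding adenosines. Over all genes it was G at 55.8% (49.4 to 62.0) of the positions with 5 or more edited reads in ADARcd. These shares are descriptions, and positions of 1 transcript share their source.

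Edits came close together in several transcripts. RPSA had a second position 6 bases from codon 288, the synonymous E286E, at 14 of 615 reads in ADARcd (2.28%). RPS3 had K108K 4 bases after the codon 107 position, at 11 of 935 reads in ADARcd (1.18%). RPS15A had K88R at 11 of 972 reads in ADARcd (1.13%), with Q90R 6 bases on at 7 of 1100 reads (0.636%) and R68G 61 bases before it at 9 of 975 reads (0.923%). Another protein-coding gene annotated on the same strand overlaps the R68G position. In RPSA and RPS3 the neighbour was edited less than the strong position beside it.

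RPS14, which lies in the region lost in the 5q deletion of myelodysplasia, had K61R at 37 of 963 reads in ADARcd (3.84%, 2.72 to 5.26) and Q83R at 31 of 1029 (3.01%, 2.06 to 4.25). RPS18, a protein of the subunit's head, had N101S at 23 of 1482 reads in ADARcd (1.55%). RPS10 had Y57C at 12 of 1039 reads (1.16%) and Y70C at 5 of 1323 (0.378%) in ADARcd, where the RPS10-NUDT3 readthrough gene shares the positions. None of these passed the adjusted test.

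The remaining positions with 5 or 6 edited reads in ADARcd lay between 0.258% and 2.43%. RPS4Y1, the Y-linked paralogue of RPS4X, had T130A at 6 of 247 reads in ADARcd (2.43%). RPS24 had the middle base of its stop codon (TAA to TGA) edited in 6 of 727 reads in ADARcd (0.825%). RPS6, the target of the S6 kinases, had T34A at 6 of 1104 (0.543%), and RPS23, a protein of the decoding centre, had N92S at 5 of 831 (0.602%). The others were FAU V67V, RPS3 E31E, RPS27 T67A, RPS2 K257R, RPS27A Q62Q and RPS3A K195E.

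Listed sites lay mostly in coding sequence. In ADARcd against Empty, 337 of 363 member positions were in coding exons (92.8%), 10 in 3′ UTRs, 6 in 5′ UTRs and 10 in an intron of RPS29. The 3′ UTR count includes stop codon bases, such as those of RPS3, RPS24 and RPS29. Over all genes of that list 68.2% were in coding exons. In ADARcd 78.0% (73.2 to 82.4) of member coding edits would change the amino acid, beside 80.2% of all adenosines in these coding sequences. Among positions with 5 or more edited reads the share was 73.3% (22 of 30).

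Of the 9 coding positions lower in DDX41-ADARcd, 7 lay in the last 25% of the codons, such as RPS29 with 2 codons after it, RPS27 with 4, RPSA with 7 and RPS27A with 8. This feature was chosen after the values were seen. Among all 30 coding positions with 5 or more edited reads in ADARcd, 11 lay there (36.7%, 19.9 to 56.1), beside 24.9% of the members' coding adenosines and 24.5% of positions with 1 edited read.

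The second comparison asks what the fusion adds over the empty vector. The list of DDX41-ADARcd against Empty held 199 positions in 31 of the 33 genes, of 3516 positions in 957 genes. None passed Fisher's exact test, beside 0.0% of all 3512 tested, and none reached an unadjusted p under 0.05, where 3 positions did over all genes. The smallest member p was 0.225. FAU and RPS4Y1 had no position in this list. The median level was 0.168% (0.154 to 0.191) in DDX41-ADARcd at 686 reads, and the 138 reads of Empty allow up to 2.17%, so levels of this size could not be separated from Empty.

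The highest levels in this list were low. RPSA codon 288 had 8 of 321 reads in DDX41-ADARcd (2.49%, 1.08 to 4.85) and none of 34 in Empty. RPS2 codon 235 had 10 of 1803 in DDX41-ADARcd (0.555%, 0.266 to 1.02) and none of 423 in Empty, which allows up to 0.709%. These were the only member positions with 5 or more edited reads in DDX41-ADARcd. RPSA at position 39411983 had 3 of 426 reads in DDX41-ADARcd (0.704%, 0.146 to 2.04), and RPS29 codon 54 had 2 of 321 (0.623%, 0.0755 to 2.23). The intervals of both overlap those of RPSA codon 288 and RPS2 codon 235. A single edited read was the basis of 78.9% of member positions.

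In most member genes fewer positions were listed for the fusion. In DDX41-ADARcd against Empty genes with many positions were RPS3A and RPS29 with 14 each, RPS18 with 13, RPS2 with 11, RPS27A and RPS6 with 10, and RPS4X and RPS24 with 8. In ADARcd against Empty such genes were RPS2 with 28, RPS27A with 20, RPS3A with 19, RPS29 with 18, RPS3 and RPS6 with 17, and RPS20 and RPSA with 16. RPS15 had 6 positions in DDX41-ADARcd and 3 in ADARcd, and RPS28 had 2 in DDX41-ADARcd and 1 in ADARcd. Per 100 coding adenosines, the members together had 4.05 listed positions in DDX41-ADARcd and 7.62 in ADARcd. Depth at these positions was lower in DDX41-ADARcd (median 686 reads, beside 958 in ADARcd), and its part in these counts was not tested.

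**Figure D3:**
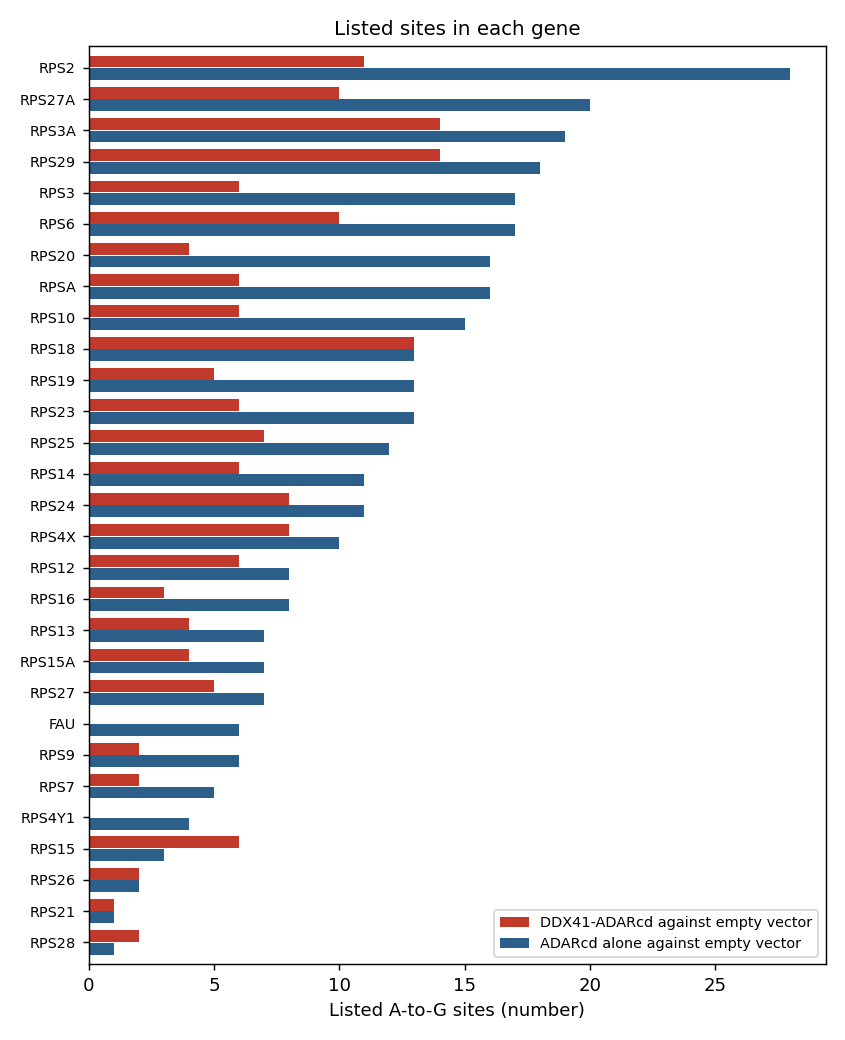
Number of listed A-to-G positions against Empty in the member genes reported by name, with DDX41-ADARcd above ADARcd in each row. ADARcd has more positions in most genes, RPS15 and RPS28 have more in DDX41-ADARcd, and FAU and RPS4Y1 have none in DDX41-ADARcd.

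The third comparison asks where the fusion edits more or less than the domain alone. Member editing was lower in DDX41-ADARcd at 10 positions of 7 genes, RPS2, RPS3, RPS3A, RPS27, RPS27A, RPS29 and RPSA, and higher at none. The positions tested were those of the deposited list, where ADARcd had 0 edited reads, and those listed for both libraries against Empty. Of 204 member positions, 10 were lower (4.9%), beside 0.282% of all 9227 tested. None was higher, beside 0.0% over all genes. An unadjusted p under 0.05 was reached by the same number, 10, on the lower side, and by 1 on the higher side, beside 39 and 40 over all genes. Only positions listed for both could be lower: these numbered 31 in the members, of which 10 passed (32.3%), and 400 over all genes, of which 6.5% passed. Median depths at the 31 were 778 reads in DDX41-ADARcd and 1095 in ADARcd, beside 441.5 and 593.5 at the 400.

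At RPS3A codon 234, DDX41-ADARcd had 3 of 769 reads edited (0.390%, 0.0805 to 1.14) where ADARcd had 414 of 1104 (37.5%), so the level in ADARcd was 96.1 times that in DDX41-ADARcd (Fisher's exact test, adjusted p = 4.27e-103). The intervals of the libraries did not overlap. At RPS2 codon 235, DDX41-ADARcd had 10 of 1803 (0.555%) and ADARcd 285 of 2270 (12.6%; Fisher's exact test, adjusted p = 2.63e-58). At RPS27 codon 80, DDX41-ADARcd had 2 of 1000 (0.2%, 0.0242 to 0.721) and ADARcd 100 of 1354 (7.39%; Fisher's exact test, adjusted p = 3.00e-19). These 3 positions had also passed in ADARcd against Empty.

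The other 2 RPS2 positions listed for both libraries with 5 or more edited reads in ADARcd were lower as well. At codon 238 (K238R), DDX41-ADARcd had 1 of 1843 reads edited (0.0543%) and ADARcd 57 of 2384 (2.39%, 1.82 to 3.09; Fisher's exact test, adjusted p = 1.21e-10). At codon 103 (K103R), DDX41-ADARcd had 1 of 850 (0.118%) and ADARcd 37 of 1237 (2.99%, 2.12 to 4.10; Fisher's exact test, adjusted p = 4.16e-05). RPS3 was lower at codon 107 (Y107C), with 4 of 720 reads in DDX41-ADARcd (0.556%) and 48 of 950 in ADARcd (5.05%, 3.75 to 6.64; Fisher's exact test, adjusted p = 8.17e-06). At the last base of the RPS3 stop codon, DDX41-ADARcd had 3 of 617 (0.486%) and ADARcd 56 of 841 (6.66%, 5.07 to 8.56; Fisher's exact test, adjusted p = 4.52e-08).

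RPS27A, whose protein is made joined to ubiquitin, was lower at Y148C: 1 of 450 reads in DDX41-ADARcd (0.222%) against 45 of 606 in ADARcd (7.43%, 5.47 to 9.81; Fisher's exact test, adjusted p = 1.10e-07). RPS29 was lower at K54E, with 2 of 321 in DDX41-ADARcd (0.623%) and 46 of 457 in ADARcd (10.1%, 7.46 to 13.2; Fisher's exact test, adjusted p = 1.74e-06). RPSA stood closest to equality at V288V, with 8 of 321 in DDX41-ADARcd (2.49%, 1.08 to 4.85) and 57 of 563 in ADARcd (10.1%, 7.76 to 12.9; Fisher's exact test, adjusted p = 0.00500). By Fisher's exact test it was not significant under Bonferroni adjustment (p = 0.11) or with the reads halved (adjusted p = 0.205).

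Over the 10 positions the level in ADARcd was a median of 24.0 times that in DDX41-ADARcd (range 4.06 to 96.1), with medians of 0.438% in DDX41-ADARcd and 7.41% in ADARcd. All member positions listed for both with 5 or more edited reads in ADARcd were among them. In other genes, 68 positions met that condition, and the level was lower in DDX41-ADARcd at 62 of them. Their median was 4.05 times, with 16 past the test. Their median depths were 148.5 for DDX41-ADARcd and 223 for ADARcd, below the 744.5 and 1027 of the members. With at least 300 reads in both libraries, a condition added after seeing the data, 26 positions of other genes had a median of 6.5 times. Of these 26, 24 were lower in DDX41-ADARcd and 9 passed. Choosing positions by their reads in ADARcd favours a lower level in the other library, so the fold is a description.

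**Figure D4:**
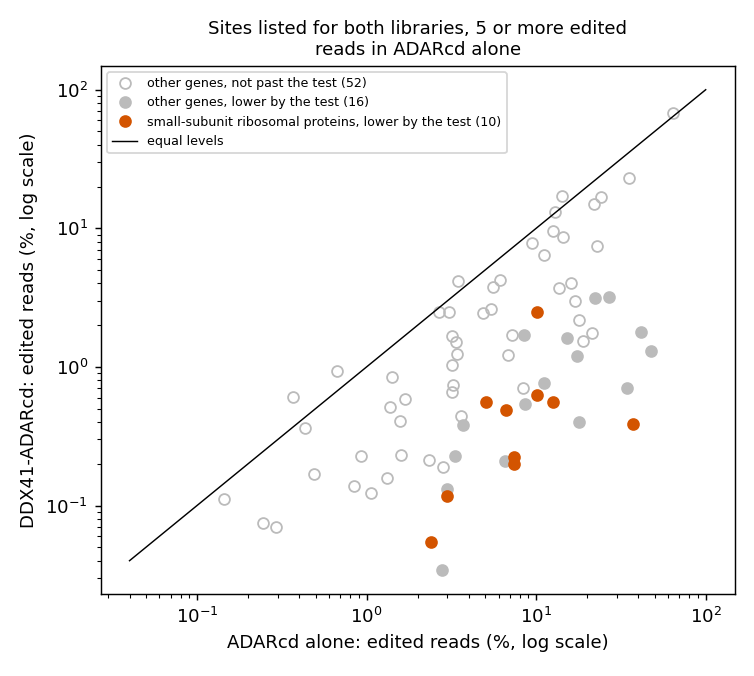
Editing level in DDX41-ADARcd (vertical, percent, log axis) against ADARcd (horizontal, percent, log axis) at the 78 positions listed for both libraries with 5 or more edited reads in ADARcd. All 10 member positions lie below the line of equal levels, and positions of other genes spread from slightly above the line to far below it.

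Reads of an ADAR-family gene differed between the transduced libraries. Over 5 listed positions of ADARB1, the gene of an ADAR-family enzyme, the median was 223 reads for DDX41-ADARcd against 909 for ADARcd (ratio 0.217), the lowest of 543 genes with 5 or more positions. The labels do not say which ADAR gene the domain came from. The part of this difference, and of the lower depth in DDX41-ADARcd, in the lower editing was not tested.

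The other 21 shared member positions each had fewer than 5 edited reads in ADARcd. Over all 31 the level was lower in DDX41-ADARcd at 16 and higher at 15, the median ratio of ADARcd over DDX41-ADARcd was 1.0, and 10 had 1 edited read in both. Positions with 1 edited read in ADARcd were also listed for DDX41-ADARcd in 15 of 247 cases (6.07%, 3.44 to 9.82), those with 2 to 4 in 6 of 84 (7.14%), those with 5 to 9 in 0 of 13, and those with 10 or more in 10 of 19 (52.6%, 28.9 to 75.6). Over all genes the last share was 44.8%.

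The other 22 well supported ADARcd positions, in 16 genes, were not listed for DDX41-ADARcd. They included FAU L10L and both RPS14 positions, and their median level in ADARcd was 0.915% (range 0.258% to 10.5%). The lists do not give the reads of DDX41-ADARcd there, so these were not tested. At other listed positions DDX41-ADARcd had 528 to 683 reads in RPS14 (6 positions) and 88 in FAU (1 position).

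On the higher side, the list of DDX41-ADARcd against ADARcd held 173 member positions in 32 genes, of 10407 in 4036, with at most 4 edited reads each and RPS4Y1 absent. Their median level in DDX41-ADARcd was 0.168% (0.152 to 0.191) at 675 reads, where ADARcd had 0 edited reads of a median of 950. The smallest p belonged to RPSA at position 39411983, in a coding exon: 3 of 426 reads in DDX41-ADARcd (0.704%, 0.146 to 2.04) against 0 of 788 in ADARcd, up to 0.381% (p = 0.0430 by Fisher's exact test, adjusted p = 0.560). Among positions with at least 20 reads in both libraries, 5 had higher levels, in RPS21, RPS12, RPS26, FAU and RPS7, and each rested on 1 edited read of 72 to 129. A or T came before the adenosine at 41.2% (33.6 to 49.1) of the 165 exon positions, beside 41.8% of the members' coding adenosines.

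The 3 lists overlapped unevenly. DDX41-ADARcd and ADARcd against Empty shared 31 member positions, 15.6% of the 199 of DDX41-ADARcd and 8.54% of the 363 of ADARcd. Of the 173 positions of DDX41-ADARcd against ADARcd, 168 (97.1%) were in its list against Empty, which shares the same DDX41-ADARcd reads.

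Reads at other bases give a scale for single edited reads. At the 157 member positions with 1 edited read in DDX41-ADARcd against Empty, the edited base was 0.125% of reads, and the other 2 bases together 0.0694% in DDX41-ADARcd and 0.0695% in Empty. At the 247 such positions of ADARcd the edited base was 0.0936%, and the other 2 bases together 0.0599% in ADARcd and 0.0517% in Empty. The edited base was chosen to be present, so the figures are not like for like.

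RPS29 held positions of another kind. Besides its exon positions, 18 positions in an intron on its minus strand (chr14:49586617-49586840) lie within RN7SL1, the 7SL RNA of the signal recognition particle, which is on the plus strand. There the reads numbered 2298 to 3784 in DDX41-ADARcd against Empty and 2324 to 4722 in ADARcd against Empty, and the exon positions of RPS29 had 161 to 321 in DDX41-ADARcd and 107 to 680 in ADARcd. No intron position had more than 4 edited reads, and levels were 0.0219% to 0.0941% in ADARcd. No source used here gives the strand of the reads, and reads of the 2 genes cannot be told apart. Of the RPS29 positions against Empty, 11 of 14 in DDX41-ADARcd and 10 of 18 in ADARcd were of this kind.

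Small nucleolar RNA genes lay near some of the edited positions. Of 494 member coding positions in any list, 134 (27.1%, 23.3 to 31.3) were within 500 bases of an annotated small nucleolar RNA, beside 915 of 4423 coding adenosines (20.7%). With 5 or more edited reads in ADARcd, 6 of 30 were (20%, 7.71 to 38.6). Of the 10 lower positions, 4 were: 3 in RPS2, near SNORA10 and SNORA64, and the stop codon position of RPS3, near SNORD15B. The reads do not tell whether edits came from spliced or unspliced RNA.

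Depth differed by gene. The reads are not normalized, so the depth of sequencing, the number of cells and the RNA per cell cannot be told apart. In the 20 members with 5 or more exon positions, DDX41-ADARcd had a median of 0.722 times the reads of ADARcd (0.610 in RPSA to 0.773 in RPS2), beside 0.657 over 543 genes. Over all members the extremes were FAU with 0.515, at 1 position, and RPS16 with 0.812. RPS16, a protein of the head of the subunit, stood apart in Empty: 537 to 932 reads in ADARcd against 10 to 26 in Empty over 8 positions. Its median ratio of ADARcd over Empty was 47.4, the highest of 414 genes, whose median was 9.0 and 95th percentile 17.2.

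**Figure D5:**
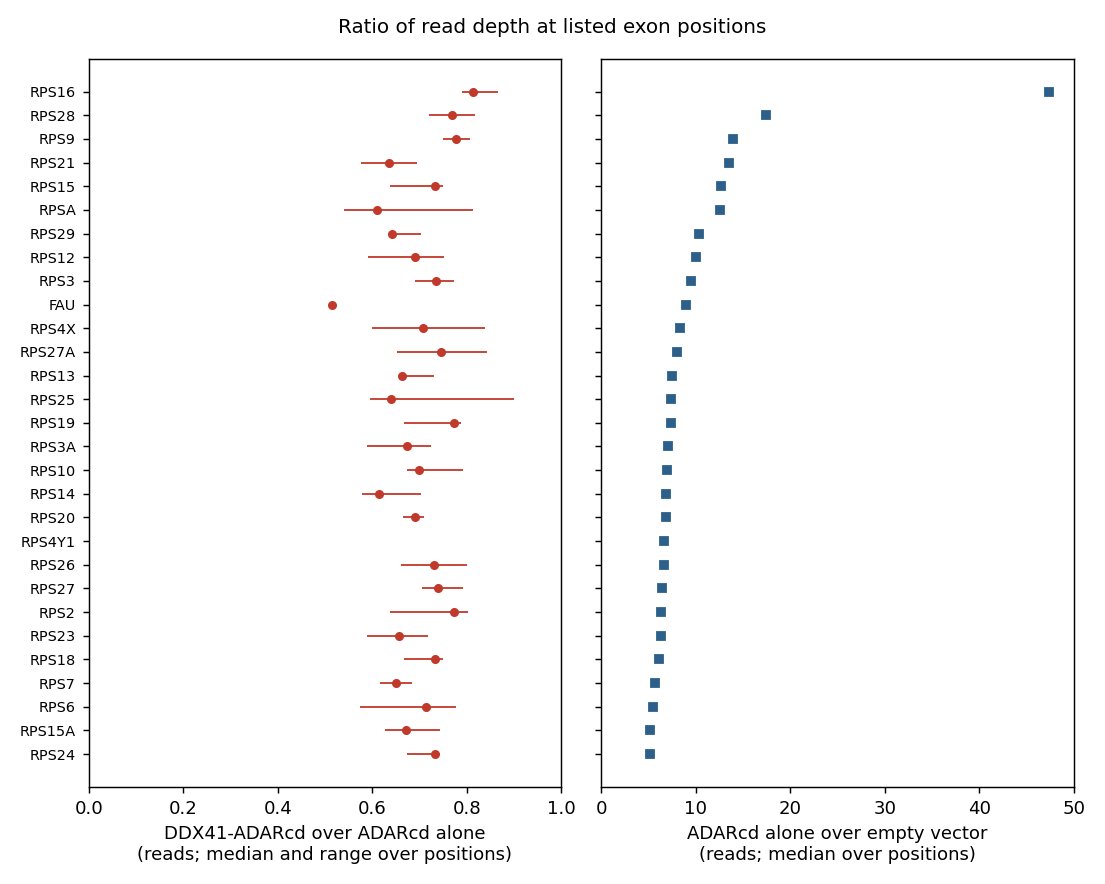
Ratio of reads at listed exon positions for the member genes reported by name: DDX41-ADARcd over ADARcd at left, with the range over positions, and ADARcd over Empty at right. At left all medians lie between 0.515 and 0.812, and at right RPS16 lies at 47.4, far from the other genes.

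Related gene groups gave a comparison of counts. The large-subunit ribosomal proteins had 530 positions in 47 genes in ADARcd against Empty, and none passed the test. Of their 43 positions listed for both libraries, 1, in RPL15, was lower in DDX41-ADARcd (2.33%, beside 32.3% of the 31 of the small-subunit proteins and 6.5% over all genes). RACK1 and initiation factors of the small subunit had 114 positions in 22 genes in ADARcd with none called, and small-subunit maturation factors had 25 in 2 genes with none called. The difference between the groups was not tested.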

How the data were processed

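Per the file headers, the deposited numbers are read counts: the reads showing each of the 4 bases, and their total, at a position in 2 libraries, not normalized. The submitters' processing notes name CASAVA 1.4, FastQC 0.11.7, STAR 2.5 and mm10, with no role, but the positions are human and match GRCh38 (518 member positions lay on an annotated exon, all with A on the transcript). No source used here gives the site caller or its filters. The edited library of a list was taken to be the one its title names first, since the columns do not name libraries. Totals at shared positions were equal between lists at 402 of 402 positions for Empty and 3114 of 3114 for DDX41-ADARcd. The lists that hold ADARcd shared no member position, so its totals had no such check. In the values, each control had 0 edited reads and at least 10 reads.

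The editing level is the share of reads with G, as read on the gene's strand, in percent. Intervals are exact Clopper-Pearson 95% intervals, and a count of 0 is given with the limit of 3 reads of its depth. Both cover counting error only, since PCR reads without molecular identifiers are not independent molecules. A two-sided Fisher's exact test (scipy 1.17.1, Python 3.11.15) compared edited and other reads at positions with at least 10 reads in both libraries, with Benjamini-Hochberg adjustment over all positions of a comparison and a threshold of 0.05, and was tested on simulated data. For DDX41-ADARcd against ADARcd the deposited list was joined with the positions listed for both libraries against Empty. Genes, codons and neighbouring bases came from the principal transcripts of GENCODE 29. Its coding regions leave out the stop codon, so stop codon bases were counted with the 3′ UTR.

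Positions were named where they passed a test, had 5 or more edited reads or were among the 10 highest levels of a list. Those 10 were taken among positions with at least 20 reads in both libraries. Genes were named where they had most positions, were absent from a list or had extreme depth ratios. RPS16 over Empty, the place of codons and the RPS29 intron were chosen after values were seen. The members and gene lists were chosen with earlier results of these data known. Alternatives were at least 20 reads, 2 or more edited reads, Bonferroni adjustment, halved reads, mitochondrial positions left out, RPS27L, RPS4Y1 and FAU left out, and, added after seeing the data, the RPS29 intron left out. Some member genes are counted in the totals but not reported here by name.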

Additional observations from a re-analysis of the deposited data

How the results depend on the processing

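The number of member positions that passed Fisher's exact test in ADARcd against Empty, 4 as reported, was 5 with at least 20 reads in both libraries, 5 with 2 or more edited reads and 3 with reads halved. The number lower in DDX41-ADARcd than in ADARcd, 10 as reported, was 9 with Bonferroni adjustment and 9 with reads halved. The other alternatives run left these numbers at 4 and 10. Under every alternative run, 0 member positions passed for DDX41-ADARcd against Empty and 0 passed as higher for DDX41-ADARcd against ADARcd. At single positions, by Fisher's exact test, RPS27 in ADARcd against Empty was not significant with reads halved (adjusted p = 0.156, range over its alternatives 0.000351 to 0.156), nor was RPSA in DDX41-ADARcd against ADARcd with Bonferroni adjustment (0.11) or reads halved (0.205, range 0.000902 to 0.205). Keeping positions with 2 or more edited reads left 27 of 173 in DDX41-ADARcd against ADARcd, 42 of 199 in DDX41-ADARcd against Empty and 116 of 363 in ADARcd against Empty, with median levels of 0.263%, 0.268% and 0.305%. No paired analysis was possible because each group has 1 library. Depth limits the comparisons with Empty: at the median member position its 0 edited reads allow 2.17% to 2.29%.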
